A study of Rattus norvegicus with 6 samples.

Results

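The genes described here shape the mitochondrial network of the donor heart and mark damaged mitochondria for removal. They are 10 genes picked by symbol from the 22250 genes of the deposited expression table, 3 for fusion (Opa1, Mfn1, Mfn2), 3 for fission (Dnm1l, Fis1, Mff) and 4 for mitophagy (Pink1, Bnip3l, Fundc1, Phb2). Their expression was read in left ventricular myocardium of Sprague-Dawley rat hearts by RNA sequencing of polyadenylated RNA. The young donors were 10 weeks old (hearts WT3, WT13 and WT15) and the aged donors were 1 year old (hearts OT3, OT4 and OT7). All 6 hearts carried the wild-type genotype, had been stored cold and had been transplanted heterotopically into young recipients, and all were taken on day 1 after the operation. No heart that was not transplanted was analysed here, so each value is that of a graft, including any recipient cells that had entered it.

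Mitochondria fuse and divide continuously. The mitofusins, dynamin-like GTPases of the outer membrane, join outer membranes, and OPA1, a GTPase of the inner membrane, joins inner membranes and keeps cristae closed. Division is carried out by DRP1, the product of Dnm1l, a cytosolic GTPase that adaptors such as MFF and FIS1 recruit to the outer membrane. A mitochondrion that has lost its membrane potential accumulates the kinase PINK1, which starts ubiquitin-dependent mitophagy, while BNIP3L (also called NIX) and FUNDC1 are outer membrane receptors that bind autophagosome proteins directly. The heart depends on both processes because cardiomyocytes are densely packed with mitochondria.

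Young donor hearts gave 21457509 to 22277905 counted reads each and aged donor hearts 22508040 to 24560869. The mitochondrial genome took 11.9% to 21.7% of these in young and 6.57% to 10.3% in aged donor hearts. Levels are given as CPM, counts scaled to a common library size with TMM, a method that estimates the scaling from genes that differ little. The hearts of a group were not alike. The 12 cardiomyocyte markers summed to 14530 to 115500 CPM in young donor hearts and to 633 to 9208 CPM in aged donor hearts. Of the 12, 10 were lower in every aged heart than in every young heart, against 20.6% of all genes tested. By the limits given below, 5 of the 12 were called lower (41.7%), against 19.0% of all genes, and 0 higher. OT3 held the lowest sum, although its label is left ventricular myocardium, and none of the 12 markers was at 0 in all hearts. WT15 lay between the groups, with a mean log2 CPM of the markers of 9.63, against 12.27 and 12.38 in WT3 and WT13, 8.95 and 8.60 in OT4 and OT7, and 3.85 in OT3. Neutrophil markers moved the other way, from 5.75 to 134.7 CPM in sum in young donor hearts to 314 to 1326 CPM in aged donor hearts. By the same limits, 6 of the 7 neutrophil markers tested were higher, against 13.2% of all genes. Not tested were Ltf, at 0 in every heart, Mpo, with at most 3 reads in a heart, and Ngp. Ngp had means of 0.31 CPM in young and 0.25 CPM in aged donor hearts. Macrophage markers summed to 290.8 to 1023 CPM and to 1076 to 2532 CPM in young and aged donor hearts, with 5 of 10 higher. In whole tissue, fewer cells of a type and less RNA per cell cannot be told apart.

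A gene was called lower or higher in aged donor hearts when its fold change was below 0.67 or above 1.5 with an unadjusted p-value under 0.05 in edgeR's quasi-likelihood test. The numbers in these limits are those of the study, applied here to unadjusted p-values. Of the 10 genes, 6 were lower (Opa1, Mfn1, Mfn2, Dnm1l, Mff and Fundc1), 0 were higher, and Fis1, Pink1, Bnip3l and Phb2 were called neither lower nor higher. All 10 passed the filter on low counts. Over the 13784 genes tested, 19.0% were lower and 13.2% were higher by the same limits. The same 6 genes were below every young heart in every aged heart, which held for 20.6% of all genes tested. The median log2 fold change was -1.17 over the 10 genes and 0.016 over all genes tested. After Benjamini-Hochberg adjustment over all genes tested, 0 of the 10 genes and 0.0% of all genes had an adjusted p-value under 0.05 in edgeR's test, against 4731 genes with an unadjusted p-value under 0.05. DESeq2's Wald test gave an adjusted p-value under 0.05 to 6 of the 10 (with Pink1 and without Mff), against 26.1% of all genes, and limma-voom with quality weights to 9 of the 10, all but Bnip3l, against 61.1% of all genes.

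**Figure D1:**
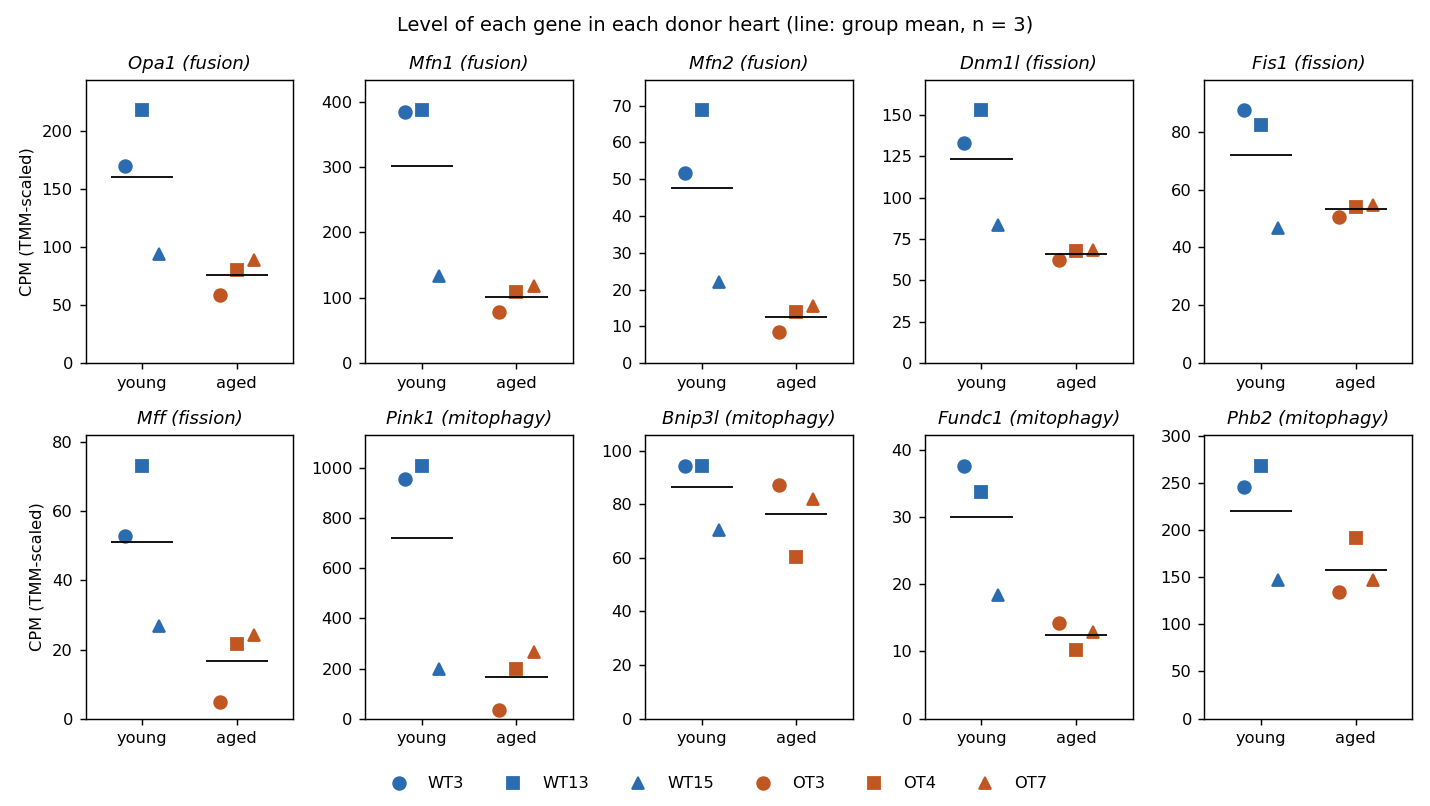
TMM-scaled CPM (linear axis from 0, its range set for each gene) of the 10 genes in each young and aged donor heart; points are hearts, with WT15 and OT7 as triangles, and lines are group means of 3 hearts. WT15 was the lowest young heart for 10 of 10 genes and OT3 the lowest aged heart for 8 of 10.

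Set per kilobase of gene model, so that genes can be compared, Pink1 had the highest level in young donor hearts at 299 ± 189 CPM per kb (SD, n = 3), followed within its spread by Phb2 at 164 ± 48.0, which stood above the rest beyond its spread. The mean levels of Mfn1 (69.9 ± 33.7), Fis1 (58.3 ± 17.9), Opa1 (49.5 ± 19.2) and Dnm1l (46.7 ± 13.5) followed, each within the larger SD of its neighbour. Bnip3l (27.0 ± 4.34), Mff (23.4 ± 10.7), Fundc1 (14.9 ± 5.05) and Mfn2 (12.2 ± 6.07) stood below Dnm1l, and neighbours among these did not differ beyond their spread. In aged donor hearts Phb2 came first at 118 ± 22.3 CPM per kb, ahead of Pink1 at 69.1 ± 49.8 and Fis1 at 42.9 ± 1.78, with no gap beyond the spread between neighbours. A gap beyond the spread separated Fis1 from Dnm1l (25.1 ± 1.24), which lay with Bnip3l (23.9 ± 4.47), Mfn1 (23.6 ± 4.87) and Opa1 (23.4 ± 4.79). Mff (7.68 ± 4.82), Fundc1 (6.18 ± 0.988) and Mfn2 (3.24 ± 0.927) were lowest, and Mfn2 lay beyond the spread from Fundc1. In both groups, Mfn1 was thus the more abundant mitofusin transcript and Mfn2 the last of the 10 genes.

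All 3 fusion genes were lower in aged donor hearts. Mfn2 (ENSRNOG00000046424, chr5:164684509-164714145 on the minus strand of Rnor_6.0), a mitofusin that also tethers mitochondria to the endoplasmic reticulum, had 51.8, 68.8 and 22.2 CPM in WT3, WT13 and WT15 and 8.54, 13.8 and 15.4 CPM in OT3, OT4 and OT7. No aged heart reached a young heart, and WT15 lay closer to the aged hearts than to the other young hearts. Its level was 3.78-fold lower in aged than in young donor hearts, for a log2 fold change of -1.92 with a standard error of 0.457 (edgeR quasi-likelihood test, Benjamini-Hochberg adjusted p = 0.0916). Mfn1 (ENSRNOG00000011057, chr2:118929738-118973698, plus strand), the other mitofusin, had 384.1, 386.9 and 133.9 CPM in WT3, WT13 and WT15 and 78.2, 108.6 and 118.4 CPM in OT3, OT4 and OT7. WT3 and WT13 were nearly equal and stood far above the other 4 hearts, and WT15 exceeded the highest aged heart by a small margin. Its log2 fold change was -1.57 with a standard error of 0.446 (edgeR, Benjamini-Hochberg adjusted p = 0.0924). Opa1 (ENSRNOG00000001717, chr11:74720254-74793803, minus strand) had 169.8, 217.8 and 94.2 CPM in WT3, WT13 and WT15 and 58.6, 80.5 and 88.6 CPM in OT3, OT4 and OT7. The groups again did not overlap, with WT15 next to OT7. Its log2 fold change was -1.08 with a standard error of 0.348 (edgeR, Benjamini-Hochberg adjusted p = 0.101). The unadjusted p-value of Opa1 was above 0.05 without WT13, without OT3 and without OT4, with log2 fold changes of -0.80, -0.92 and -1.12, while both mitofusins stayed past the limits whichever heart was left out.

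Of the fission genes, Dnm1l and Mff were lower in aged donor hearts and Fis1 passed no limit. Dnm1l (ENSRNOG00000001813, chr11:88830957-88880198, plus strand), the GTPase that constricts the organelle, had 133.0, 153.0 and 83.7 CPM in WT3, WT13 and WT15 and 62.4, 67.6 and 68.4 CPM in OT3, OT4 and OT7. The aged hearts lay close together and below every young heart. The log2 fold change was -0.90 with a standard error of 0.254 (edgeR, Benjamini-Hochberg adjusted p = 0.0924), and it stayed past the limits whichever heart was left out. Mff (ENSRNOG00000015428, chr9:90880614-90908852, plus strand), the outer membrane receptor for DRP1, had 53.0, 73.2 and 26.8 CPM in WT3, WT13 and WT15 and 4.73, 21.5 and 24.2 CPM in OT3, OT4 and OT7. WT15 was just above OT7, and OT3, with 144 reads, stood far below all other hearts. The log2 fold change was -1.60 with a standard error of 0.654 (edgeR, Benjamini-Hochberg adjusted p = 0.141). The unadjusted p-value of Mff was above 0.05 without WT3, WT13, OT4 or OT7, with log2 fold changes of -1.58, -1.25, -1.81 and -1.95, and Mff remained past the limits without OT3, at -1.15. Fis1 (ENSRNOG00000001420, chr12:22750485-22765308, minus strand), a small tail-anchored adaptor, had 87.5, 82.2 and 46.7 CPM in WT3, WT13 and WT15 and 50.6, 53.9 and 54.8 CPM in OT3, OT4 and OT7. WT15 was the lowest of the 6 hearts, so the groups overlapped. Its log2 fold change was -0.44 with a standard error of 0.262 (edgeR, Benjamini-Hochberg adjusted p = 0.256), and it was 0.070 under scaling by library totals.

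Of the mitophagy genes, only Fundc1 was called lower, although the estimated fold change of Pink1 was the largest of the 10 genes with all 6 hearts and TMM scaling. Fundc1 (ENSRNOG00000003470, chrX:5549419-5566127, plus strand), the receptor tied to hypoxia, had 37.7, 33.8 and 18.5 CPM in WT3, WT13 and WT15 and 14.2, 10.3 and 12.8 CPM in OT3, OT4 and OT7. The groups did not overlap, and OT3 was the highest aged heart. The log2 fold change was -1.27 with a standard error of 0.314 (edgeR, Benjamini-Hochberg adjusted p = 0.0916), and it stayed past the limits whichever heart was left out. Pink1 (ENSRNOG00000015385, chr5:156677146-156689415, minus strand), the kinase that senses depolarized mitochondria, had 956, 1010 and 197 CPM in WT3, WT13 and WT15 and 33.8, 198 and 268 CPM in OT3, OT4 and OT7. WT3 and WT13 stood apart at the top and OT3 at the bottom, and WT15 lay within the aged range. The log2 fold change was -2.11 with a standard error of 0.902 (edgeR, Benjamini-Hochberg adjusted p = 0.153), and it was past the limits without WT15, at -2.52 (edgeR, adjusted p = 0.0412). When any other heart was left out Pink1 was not called, with log2 fold changes from -1.62 without OT3 to -2.63 without OT7. Bnip3l (ENSRNOG00000009820, chr15:43643897-43667029, minus strand) had 94.4, 94.3 and 70.3 CPM in WT3, WT13 and WT15 and 87.1, 60.2 and 82.0 CPM in OT3, OT4 and OT7. WT3 and WT13 were above every aged heart, WT15 lay within the aged range, and OT3 was the highest aged heart. For Bnip3l the log2 fold change was -0.18 with a standard error of 0.222 (edgeR, Benjamini-Hochberg adjusted p = 0.582). Phb2 (ENSRNOG00000012999, chr4:157230769-157235367, plus strand), an inner membrane prohibitin that also binds LC3, had 245.5, 268.4 and 147.2 CPM in WT3, WT13 and WT15 and 134.6, 191.5 and 146.9 CPM in OT3, OT4 and OT7. WT15 and OT7 were almost equal and OT4 was above both. The log2 fold change of Phb2 was -0.48 with a standard error of 0.295 (edgeR, Benjamini-Hochberg adjusted p = 0.266).

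For groups of 3 hearts each, the two-sided exact permutation test on the log2 CPM of 1 gene has a smallest possible p-value of 0.1. This value was reached by the 6 genes whose groups did not overlap, whereas the exact permutation p-value was 0.2 for Phb2, 0.3 for Pink1, 0.4 for Fis1 and 0.5 for Bnip3l. WT15 was the lowest young heart for all 10 genes and lay nearer to the aged mean than to the mean of WT3 and WT13 for all 10. OT3 was the lowest aged heart for 8 of the 10 genes and the highest for the other 2, Bnip3l and Fundc1. Without WT15, 9 of the 10 genes were lower, all but Bnip3l, against 24.2% of all genes, and 8 of the 10 had an adjusted p-value under 0.05 in edgeR's test, against 48.3% of all genes in either direction. Without OT3, 5 of the 10 were lower (Mfn1, Mfn2, Dnm1l, Mff and Fundc1), against 14.7% of all genes. Without WT13 and without OT4, 4 of the 10 were lower, against 11.6% and 15.3% of all genes.

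When the mean log2 CPM of the cardiomyocyte markers in each heart entered the fit as a covariate, 0 of the 10 genes passed the limits, as did 2.86% of all genes in the lower direction. In that fit the log2 fold change was -1.16 for Fundc1, with a standard error of 0.548, -0.84 for Mfn2, -0.63 for Mfn1, -0.52 for Dnm1l and -0.33 for Opa1. It was 0.17 for Mff, 0.45 for Pink1 and 0.054 for Phb2. Marker level and donor age move together in these hearts, and the part of the markers in the result cannot be told apart from that of age. With scaling by library totals, which moved the median log2 fold change of all genes to 0.46, Mfn1, Mfn2 and Fundc1 remained lower (3 of 10, against 10.5% of all genes), with log2 fold changes of -1.02, -1.37 and -0.74. Under that scaling Fis1, Bnip3l and Phb2 had log2 fold changes of 0.070, 0.31 and 0.021.

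**Figure D2:**
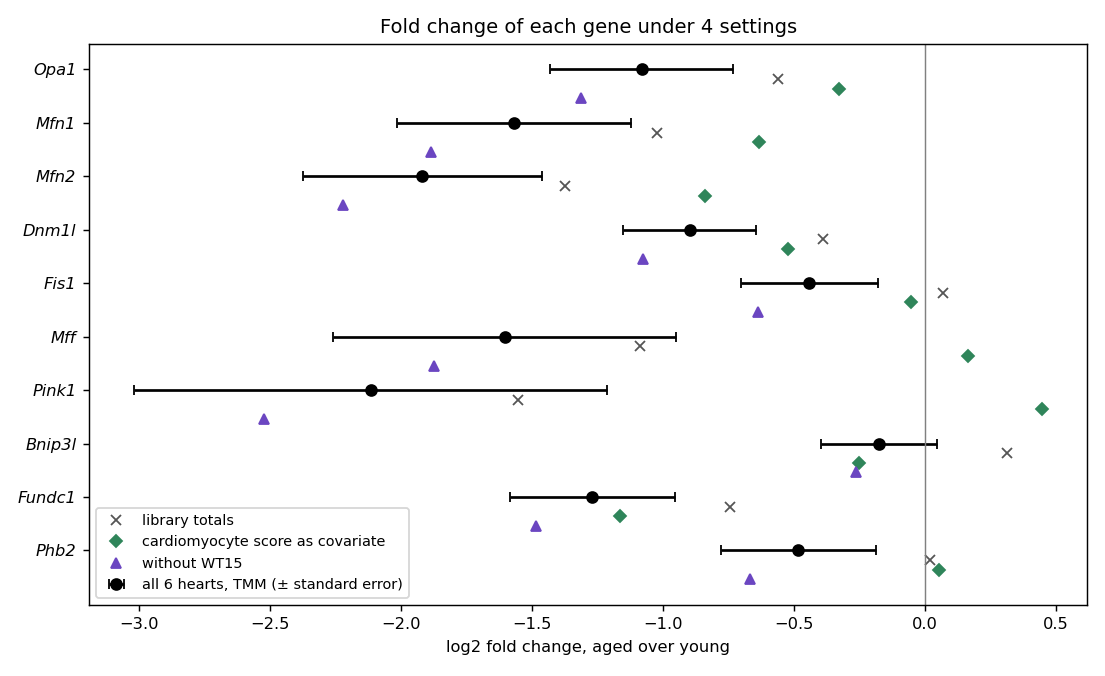
Log2 fold change, aged over young donor hearts, of the 10 genes from all 6 hearts with TMM scaling (circles, bars ± standard error), with libraries scaled by totals (crosses), with the cardiomyocyte markers as a covariate (diamonds) and without WT15 (triangles). Fundc1 moved least with the covariate among the 6 genes called lower, from -1.27 to -1.16, and Mff, Pink1 and Phb2 crossed 0.

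A difference between 2 genes within a heart does not depend on how libraries are scaled. Such differences of log2 CPM per kb were taken for 5 pairs, each with a two-sided exact permutation test and Benjamini-Hochberg adjustment over the 5. The difference of Mfn2 minus Mfn1 was -2.74, -2.34 and -2.44 in WT3, WT13 and WT15 and -3.03, -2.82 and -2.78 in OT3, OT4 and OT7. The groups did not overlap, and the difference was lower by 0.37 in aged donor hearts, with means of -2.51 ± 0.208 and -2.88 ± 0.135 (SD, n = 3; exact permutation p = 0.1, the smallest possible, adjusted p = 0.167). Mff minus Fis1, the balance of 2 DRP1 adaptors, was -1.54, -0.99 and -1.62 in young donor hearts and -4.22, -2.15 and -1.997 in aged donor hearts. The groups did not overlap, but OT3 set much of the size of the shift, which was -1.41 in all hearts and -0.69 without OT3 (exact permutation p = 0.1 with all 6 hearts, adjusted p = 0.167).

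Opa1 minus Dnm1l, inner membrane fusion against division, was 0.055, 0.21 and -0.13 in WT3, WT13 and WT15 and -0.39, -0.044 and 0.075 in OT3, OT4 and OT7. These values overlapped, and the aged minus young difference of -0.17 had an exact permutation p of 0.5. It was -0.031 without OT3, -0.083 without WT13, -0.25 without WT15 and -0.26 without OT7. Bnip3l minus Bnip3, a pair of related receptors, was -1.73, -2.10 and -0.32 in young donor hearts and 1.20, 0.067 and -0.42 in aged donor hearts. WT3 and WT13 held far more Bnip3 than Bnip3l, the other hearts did not all do so, and the groups overlapped (shift 1.66, exact permutation p = 0.2, adjusted p = 0.25). Phb2 minus Phb, the partners of the prohibitin ring, was 0.12, 0.28 and 0.35 in young donor hearts and 0.80, 0.37 and 0.44 in aged donor hearts. Every aged heart was above every young heart, OT4 and WT15 nearly meeting, and the shift of 0.28 fell to 0.15 without OT3 (exact permutation p = 0.1 with all 6 hearts, adjusted p = 0.167).

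**Figure D3:**
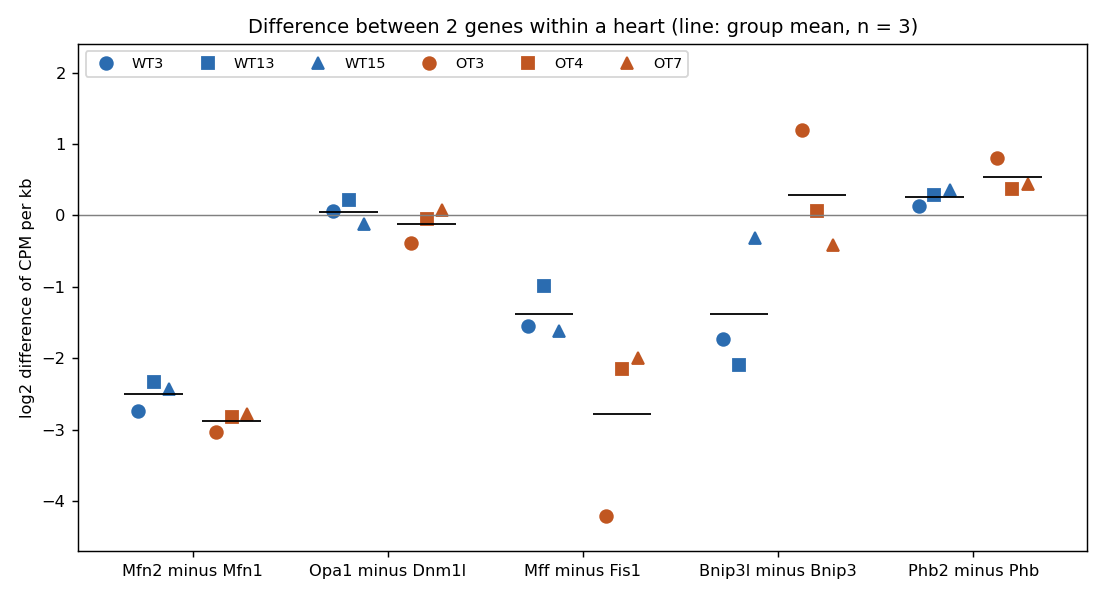
Log2 difference of CPM per kb between 2 genes within each heart for 5 pairs; points are hearts, lines are group means of 3. The groups did not overlap for Mfn2 minus Mfn1, Mff minus Fis1 and Phb2 minus Phb, and OT3 lay at -4.22 for Mff minus Fis1.

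The promoters of 7 of the 10 genes were in the RefSeq table for GRCr8, each covering 250 bases before and 50 bases after the gene start, and Fis1 had 2 entries. Mfn2, Bnip3l and Fundc1 had no entry. The sequences given are those of 2 fusion genes and the fission GTPase, which were lower in aged donor hearts together, and of Phb2, which passed no limit. Capitals mark the GC box, GGGCGG on either strand, a motif bound by Sp1 family factors. The windows are chr11:84689851-84690150 (minus strand) for Opa1, chr2:117241508-117241807 (plus) for Mfn1, chr11:98085147-98085446 (plus) for Dnm1l and chr4:159203698-159203997 (plus) for Phb2, all in GRCr8 and written 5′ to 3′.
Opa1: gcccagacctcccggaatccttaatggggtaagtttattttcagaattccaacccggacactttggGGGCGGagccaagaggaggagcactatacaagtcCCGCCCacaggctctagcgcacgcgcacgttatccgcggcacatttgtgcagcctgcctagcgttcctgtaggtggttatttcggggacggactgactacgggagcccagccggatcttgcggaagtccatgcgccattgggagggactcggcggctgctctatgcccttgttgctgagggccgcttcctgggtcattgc
Mfn1: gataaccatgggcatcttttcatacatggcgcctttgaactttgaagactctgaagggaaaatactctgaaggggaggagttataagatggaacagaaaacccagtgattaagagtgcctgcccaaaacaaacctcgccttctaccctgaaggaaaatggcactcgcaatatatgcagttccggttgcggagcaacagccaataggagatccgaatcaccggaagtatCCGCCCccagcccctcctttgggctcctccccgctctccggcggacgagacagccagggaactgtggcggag
Dnm1l: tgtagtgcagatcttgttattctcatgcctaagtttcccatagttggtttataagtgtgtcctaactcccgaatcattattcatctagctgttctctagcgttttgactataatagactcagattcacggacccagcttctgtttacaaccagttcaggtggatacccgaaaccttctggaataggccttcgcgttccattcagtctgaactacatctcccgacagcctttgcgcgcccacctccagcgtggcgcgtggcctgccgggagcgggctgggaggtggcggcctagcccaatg
Phb2: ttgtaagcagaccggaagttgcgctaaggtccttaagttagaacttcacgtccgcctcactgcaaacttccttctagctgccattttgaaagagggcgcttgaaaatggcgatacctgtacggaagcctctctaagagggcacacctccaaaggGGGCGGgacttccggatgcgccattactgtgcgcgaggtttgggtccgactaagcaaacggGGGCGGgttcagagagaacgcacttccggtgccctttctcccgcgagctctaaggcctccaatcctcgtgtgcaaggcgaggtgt

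A GC box was in 6 of the 7 promoters, all but that of Dnm1l, and in 41.8% of the promoters of all protein-coding genes and 33.1% of all promoters in the table. It began 184 and 150 bases before the start of Opa1, 22 before that of Mfn1, 31 before that of Mff, 69 and 43 before that of Pink1 and 96 and 35 before that of Phb2. The motif was thus in promoters of genes that were called lower and of genes that were not called (Fis1, Pink1 and Phb2). Of these, Pink1 was past the fold change limit and missed the limit on the p-value. An ETS site (CCGGAAG, either strand) was in the promoters of Mfn1 and Phb2, in the Fis1 entry at chr12:25349283-25349582 only, and in 10.7% of protein-coding promoters. A core of the NRF1 site (TGCGCA) was in that of Pink1 and in the Fis1 entry at chr12:25359994-25360293 only (8.74% of protein-coding promoters). The shares count single entries, whereas Fis1 had 2. An E-box (CACGTG), the palindrome bound by basic helix-loop-helix factors such as TFEB, was found at 2 places for Pink1 and in none of the other 6 (7.02%). The response element of the estrogen-related receptors (TNAAGGTCA) was in 0 of the 7 and in 1.01% of protein-coding promoters. Such matches describe letters in these windows only.

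The proteins around the 10 genes were read from 5 lists. Of the regulators of fusion and of the inner membrane, 12 of 20 tested were lower in aged donor hearts (60.0%) and 0 were higher. Their median log2 fold change was -0.93, and 19.0% of all genes tested were lower and 13.2% higher. Lower were Immt, Chchd3, Apoo, Apool and Micos10, subunits of the MICOS complex at crista junctions, with Samm50, which joins that complex to the outer membrane. The MICOS subunits Chchd6 and Micos13 were not called. Their log2 fold changes were 0.68 (edgeR, adjusted p = 0.188) and -0.905 (edgeR, adjusted p = 0.153). Also lower were the proteases Afg3l2 and Spg7, Miga2, Pld6, Slc25a46 and Letm1. Apoo had 69.8, 66.7 and 19.2 CPM in WT3, WT13 and WT15 and 5.81, 9.97 and 13.7 CPM in OT3, OT4 and OT7, with no overlap and a log2 fold change of -2.40 (edgeR, Benjamini-Hochberg adjusted p = 0.0916). Chchd3 had a log2 fold change of -1.76 (edgeR, adjusted p = 0.0927). Of the proteases that cut OPA1, Oma1 had a log2 fold change of 0.18 (edgeR, adjusted p = 0.614). Yme1l1 was at 0 in 3 hearts, with at most 4 reads in any heart, and did not enter the fit. What set these low counts was not tested, so they do not show that its transcript was absent. Stoml2, which binds prohibitins and cardiolipin, was at 0.034 (edgeR, adjusted p = 0.895).

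Of the fission regulators and adaptors, 5 of 15 tested were lower (33.3%) and 2 were higher (13.3%), with a median of -0.38. Over all genes tested, 19.0% were lower and 13.2% higher, so the share of higher genes was near that of all genes. Mtfp1, an inner membrane protein that promotes division, had 55.7, 62.2 and 6.98 CPM in WT3, WT13 and WT15 and 3.32, 6.41 and 4.48 CPM in OT3, OT4 and OT7. WT15 was within a few CPM of the aged hearts, and the log2 fold change was -3.13 (edgeR, Benjamini-Hochberg adjusted p = 0.0916). Akap1, the anchor that brings protein kinase A to mitochondria, had a log2 fold change of -1.92 (edgeR, adjusted p = 0.0919), and Mief2, Mtfr1l and Mul1 were also lower. Spire1, an actin nucleator at contact sites with the endoplasmic reticulum, rose from 13.4, 11.9 and 41.0 CPM in WT3, WT13 and WT15 to 56.6, 53.5 and 72.7 CPM in OT3, OT4 and OT7. The log2 fold change was 1.46 (edgeR, Benjamini-Hochberg adjusted p = 0.112). Pgam5, a phosphatase of the mitochondrial membrane, was higher by a log2 fold change of 0.78 (edgeR, adjusted p = 0.138), with WT15 inside the aged range.

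Of the sensors, receptors and adaptors of mitophagy, 8 of 24 were lower (33.3%) and 0 higher, with a median of -0.17. The shares of all genes tested were 19.0% and 13.2%. The lower genes were Bnip3, Optn, Nipsnap2, Vdac1 and the transport proteins Rhot1, Rhot2, Trak1 and Trak2, which link mitochondria to microtubule motors. Nipsnap2 had 544.6, 574.5 and 103.8 CPM in young donor hearts and 27.6, 56.9 and 75.9 CPM in aged donor hearts, with no overlap and a log2 fold change of -2.93 (edgeR, Benjamini-Hochberg adjusted p = 0.0916). Trak1 had a log2 fold change of -2.16 (edgeR, adjusted p = 0.0916). Bnip3, the receptor paired above with Bnip3l, had 158.1, 204.4 and 44.4 CPM in young donor hearts and 19.1, 29.0 and 55.4 CPM in aged donor hearts. OT7 was above WT15, so the groups overlapped, and the log2 fold change was -1.97 (edgeR, Benjamini-Hochberg adjusted p = 0.103).

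The core autophagy machinery was divided, with 6 of 32 lower, 2 higher and a median of -0.17, so its share of lower genes, 18.8%, was near the 19.0% of all genes. Ulk1, the kinase that starts autophagosome formation, had 214.5, 256.2 and 62.9 CPM in young donor hearts and 36.9, 39.0 and 43.1 CPM in aged donor hearts. No aged heart reached WT15, and the log2 fold change was -2.16 (edgeR, Benjamini-Hochberg adjusted p = 0.0916). Map1lc3a, an LC3 protein, was lower by a log2 fold change of -1.89 (edgeR, adjusted p = 0.0934), as were Wipi1, Atg9a, Atg10 and Gabarapl2. Atg7, the E1-like enzyme of LC3 lipidation, rose from 12.6, 13.03 and 29.6 CPM in WT3, WT13 and WT15 to 66.8, 43.6 and 42.6 CPM in OT3, OT4 and OT7. Its log2 fold change was 1.47 (edgeR, Benjamini-Hochberg adjusted p = 0.0921), and that of Atg4c, an LC3 protease, was 1.33 (edgeR, adjusted p = 0.0923).

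Of the regulators of mitochondrial biogenesis, 3 of 15 were lower (20.0%) and 2 higher (13.3%), near the 19.0% and 13.2% of all genes, with a median of -0.68. Ppargc1a, which encodes the coactivator PGC-1alpha, had 72.1, 103.4 and 15.6 CPM in WT3, WT13 and WT15 and 0.164, 4.32 and 1.95 CPM in OT3, OT4 and OT7, the first of these from 5 reads. Every aged heart was below WT15, and the log2 fold change was -4.89 with a standard error of 1.20 (edgeR, Benjamini-Hochberg adjusted p = 0.0916). Ppargc1b (-3.09; edgeR, adjusted p = 0.0916) and Ppara (-2.85; edgeR, adjusted p = 0.0923) were lower too. Pprc1, the third coactivator of that family, was higher by a log2 fold change of 1.17 (edgeR, adjusted p = 0.121), and Polg, the polymerase of mitochondrial DNA, by 0.61 (edgeR, adjusted p = 0.133).

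**Figure D4:**
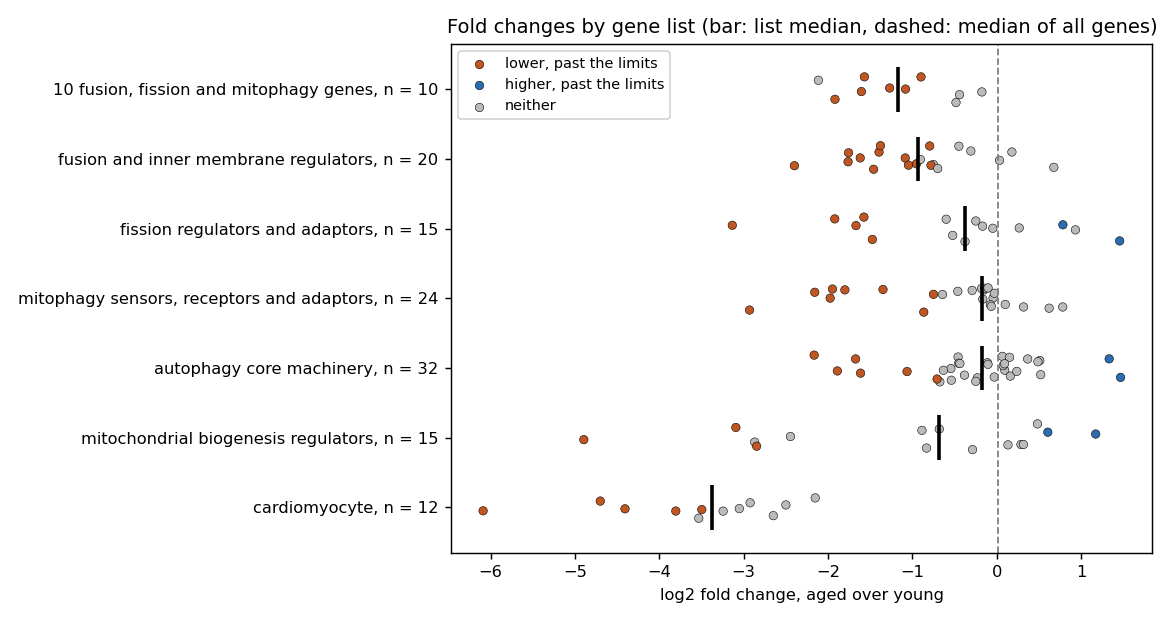
Log2 fold change, aged over young donor hearts, of each tested gene of the 10, of 5 lists around them and of the cardiomyocyte markers; orange points were lower and blue points higher past the limits, bars are list medians, and the dashed line is the median of all genes at 0.016. The medians run from -0.17 for the autophagy machinery to -1.17 for the 10 genes and -3.37 for the cardiomyocyte markers.

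Mitochondrial genes outside these lists give the range within which the 10 genes sit. Of the 105 tested genes of the KEGG oxidative phosphorylation pathway, 78 were lower (74.3%), 4 were higher (3.81%), and the median log2 fold change was -1.69. Of the 13 protein genes of the mitochondrial genome, 7 were lower (53.85%) and 0 higher, with a median of -1.84. Over all genes tested, 19.0% were lower and 13.2% higher. The median of the 10 genes, -1.17, was thus between that of all genes and those of the respiratory chain. The fusion genes, with a median of -1.57, lay nearest to the latter, and the medians were -0.90 for the 3 fission genes and -0.88 for the 4 mitophagy genes. No test was made of differences between lists.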

How the data were processed

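RNA was sequenced from left ventricular myocardium of 3 young and 3 aged donor hearts. The authors deposited 1 table with raw read counts and FPKM values per gene and heart; the counts carry no normalization, and the FPKM values divide them by gene length and library total. The submitters' processing notes name HISAT2 2.0.5, StringTie 1.3.3b, featureCounts 1.5.0-p3, DESeq2 1.16.1, GATK 3.7 and build Rnor_6.0. The use of strand in counting is not given in the sources used here. None of the 10 genes overlapped another gene of the table.

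The main test was edgeR 4.0.16 (filterByExpr, TMM, glmQLFit and glmQLFTest, no covariate) in R 4.3.3, with limma 3.58.1 and DESeq2 1.42.0 as alternatives and permutation tests in scipy 1.17.1 (Python 3.11.15). Adjustment was by Benjamini-Hochberg over all genes tested. Standard errors were derived from the fold change and its F statistic. Log2 CPM used a prior count of 2. Depth of 21457509 to 24560869 counts put 3 reads at 0.0985 to 0.191 CPM. The numbers in the labels name separate donor hearts. The p-values of the fits set the difference between groups against the spread between hearts within a group. Those of the permutation tests compare the difference with its value under every regrouping of the hearts.

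The 10 genes and all lists were chosen with earlier results of these data known. From each list, up to 2 genes that were higher and 2 that were lower, with the largest fold changes at a mean of at least 1 CPM, are given with values. Oma1, Yme1l1, Stoml2, Chchd6, Micos13, Ppara and the remaining called genes were named after their values were seen. Mtfr2, Calcoco2, Atg4a, Pecam1, Col1a2 and Hba1 were not analysed here. Cell type lists of 12 cardiomyocyte, 10 neutrophil, 10 macrophage, 8 T cell, 7 endothelial, 7 fibroblast and 7 red blood cell markers were read. Of tested T cell markers 2 of 6 were higher (33.3%), against 13.2% of all genes. Lower were 1 of 7 endothelial (14.3%), 2 of 7 fibroblast (28.6%) and 1 of 6 red blood cell markers (16.7%), against 19.0% of all genes. Promoters came from RefSeq (GRCr8) and gene positions from the table (Rnor_6.0), and the builds were not converted. Alternatives were other scalings, filters, tests, thresholds, a cardiomyocyte covariate and leaving out each heart.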

Additional observations from a re-analysis of the deposited data

How the results depend on the processing

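The 10 genes were fitted under 8 other scalings, filters, tests and covariates, under 2 other thresholds and without each heart in turn, and 0 were called higher in any of these. Of the 10, 3 were lower with libraries scaled by totals, 0 with the cardiomyocyte covariate and 0 with an adjusted p-value under 0.05, and 4 to 9 when a heart was left out, the highest without WT15 and the lowest without WT13 or OT4. The cause was not tested. Direction turned for Fis1 (0.070), Bnip3l (0.31) and Phb2 (0.021) with totals, for Bnip3l (0.14) with totals without the mitochondrial genome, and for Mff (0.17), Pink1 (0.45) and Phb2 (0.054) with the covariate. Of the 106 other genes tested in the 5 lists, 34 were lower, or 23 to 48 when a heart was left out. Higher were 6, or 2 to 13 when a heart was left out, and 15 with totals. The higher count was 13 without WT15, 3 without OT4 and 2 without WT3, WT13 or OT7. The share of all genes that was higher fell too, to 9.97% without OT4, 5.83% without WT3, 6.13% without WT13 and 8.79% without OT7. When a heart other than WT15 was left out, 11.5% to 15.3% of all genes were lower. Of all genes, 19.0% were lower and 13.2% higher with all 6 hearts, and 24.2% and 26.9% without WT15. With totals, 10.5% of all genes were lower and 22.8% higher. Without WT15, 6815 of 14109 genes had an adjusted p-value under 0.05 in edgeR's test, against 0 with all 6 hearts, 3592 in DESeq2's Wald test and 8416 in limma-voom. The pair differences kept their direction under another prior count, deposited FPKM values and leaving out each heart. Depth limited none of the 10 genes, since the smallest count was 144 reads. No paired analysis was possible because the groups share 1 replicate number only and it names different animals.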

Other observations

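The KEGG mitophagy pathway as the table assigns it had 14 of 61 tested genes lower (23.0%), 7 higher (11.5%) and a median log2 fold change of -0.10, close to the 19.0% and 13.2% of all genes. Hif1a, the oxygen-regulated transcription factor, had 79.7, 91.4 and 125.2 CPM in WT3, WT13 and WT15 and 387.1, 198.5 and 269.5 CPM in OT3, OT4 and OT7. The groups did not overlap, and the log2 fold change was 1.53 (edgeR, Benjamini-Hochberg adjusted p = 0.0916). Atf4, the main transcription factor of the integrated stress response, had 164.6, 153.3 and 204.9 CPM in young donor hearts and 293.4, 325.6 and 427.5 CPM in aged donor hearts, with a log2 fold change of 1.00 (edgeR, adjusted p = 0.0916). Src and Tfe3, chosen here after their values were seen, were higher by log2 fold changes of 0.64 and 0.62 (edgeR, adjusted p = 0.127 and adjusted p = 0.112). Among the lower genes of the pathway outside the 10, Ulk1 (-2.16) and Bnip3 (-1.97), described above, had the largest fold changes. Mitf and Tfeb were also named after their values were seen. Mitf was lower by a log2 fold change of -1.40 (edgeR, adjusted p = 0.104), and Tfeb was at -0.10 (edgeR, adjusted p = 0.639). Without those of the 10 genes that the pathway holds, 11 of 55 were lower (20.0%) and 7 higher (12.7%), and the median was -0.037.

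The genes whose log2 CPM, centred on the mean of the 6 hearts, lay closest to 1 gene of each role were taken from the 13783 other genes tested, by the root mean square distance. For Mfn2 these were Gpam, an acyltransferase of the mitochondrial outer membrane (0.037), Slc4a4, a sodium bicarbonate transporter (0.084), and Fem1a (0.099). For Dnm1l they were Mat2b (0.038), Mpdz (0.054) and Zer1 (0.055). For Pink1 they were Ldhd, a mitochondrial lactate dehydrogenase (0.12), Gstm7 (0.14) and Acat1, a mitochondrial thiolase (0.25). These are the nearest of many genes over 6 hearts only. No background distance was computed, and shared regulation was not tested. Within the 10 genes, Fis1 and Phb2 were closest to each other (0.16), as were Opa1 and Dnm1l (0.19), Mfn1 and Mfn2 (0.23), and Mff and Pink1 (0.48). The scaling factor of each heart is common to all genes, and all 10 genes were highest in WT3 and WT13.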
